A study of Mus musculus with 27 samples.

Results

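Of 22552 genes in a table of mouse liver RNA levels, 59 stood apart from the standard diet in the same direction when dietary iron was very high and when it was very low. Among them, 24 genes were higher and 35 were lower in both extremes. The higher group held 9 enzyme and transporter genes known as female-biased in mouse liver, both major metallothioneins and the calprotectin pair S100a8 and S100a9. Its other genes belonged to no such block, and 4 of the 24 are listed at 0 in SID, the standard diet. The lower group held male-biased liver genes, the glutathione transferases Gstp1 and Gstp2, and heat-shock and endoplasmic reticulum (ER) chaperone genes. Gstp1 is itself among the male-biased genes. Members were chosen by their level in 3 diets: the mean over the diets had to be at least 1 FPKM (fragments scaled to transcript length and library size), and log2(FPKM + 1) in each extreme had to lie at least 1 unit above, or at least 1 unit below, the standard diet. A total of 9548 genes passed the first condition, so the higher group was 0.251% and the lower group 0.367% of them. Taken alone, HID was at least 1 unit above SID in 1.57% and below it in 1.33% of these genes, and LID in 0.869% and 0.838%. The choice used the very differences from the standard diet that are described here, so those differences carry no test.

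Livers came from male C57B/6J mice. A high-iron diet (HID) held 8.3 g carbonyl iron per kg and was fed to mice aged 6 weeks, a low-iron diet (LID) held 0.9 mg per kg and was fed to mice aged 3 weeks, and a standard-iron diet (SID) held 50 mg per kg and was fed to mice aged 6 weeks. No genetic change or other agent is named for any diet, and the sources used here do not give the length of feeding. LID thus differed from both SID and HID in starting age as well as in iron, and age and iron cannot be told apart in those contrasts. RNA was sequenced in 9 libraries, 3 per diet, and the deposited table combined the libraries of a diet into 1 FPKM value per gene, so levels have no SD and read depth is unknown. Its high-iron column was identified by elimination, because the header does not spell the name out.

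Both differences share the SID value. For any gene of the set, a SID level that was out of place cannot be told apart from a change in both extremes. In bulk liver, fewer cells of a type and less RNA per cell cannot be told apart either. Summed FPKM came to 485504 in HID, 420623 in LID and 467304 in SID, and the median change of the 9548 genes against SID was −0.07 log2 units in HID and −0.13 in LID. Subtracting these medians left 37 genes higher and 27 lower in both, in place of 24 and 35. Scaling the diets to the same sum, taken over genes above 0 in every diet and not over the whole table, gave 40 and 23. The 8 genes that left the lower group after subtracting the medians were Ces2c, Ces3a, Cyp2c44, Cyp2d12, Cyp4a12a, Cyp7b1, Fitm1 and Herpud1. Over genes with status OK the sums were 433748 in HID, 385638 in LID and 459892 in SID, since some abundant genes are listed at 0 in LID or SID for want of an estimate. Summed FPKM of the 21 hepatocyte identity genes past the filter with status OK was 53817 in HID, 53724 in LID and 61997 in SID, and the male marker Ddx3y stood at 13.8, 13.8 and 11.3 FPKM beside 0.0110, 0.00734 and 0.00187 FPKM of Xist. Alb, which encodes albumin, is listed at 0 in all 3 diets and adds nothing to these sums.

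Mouse liver expresses a large set of genes at sex-dependent levels. The pattern of pituitary growth hormone release, pulsed in males and steadier in females, is known to set it through the transcription factor STAT5B. Metallothioneins are small cysteine-rich proteins that bind zinc and copper, and the zinc-sensing factor MTF1 and glucocorticoids are known to induce them. Cytosolic chaperones are induced by heat-shock factor when unfolded proteins accumulate, and the ER has a response of its own, run by ATF6, XBP1 and PERK, that raises chaperones and the machinery of ER-associated degradation.

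**Figure D1:**
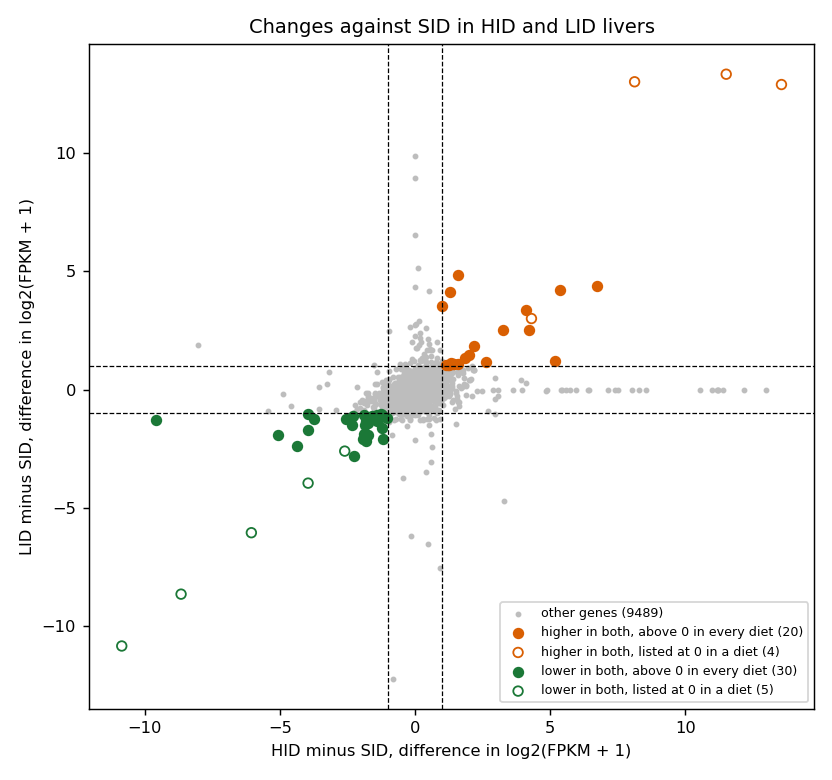
Difference in log2(FPKM + 1) of HID minus SID (horizontal) and LID minus SID (vertical) for each of the 9548 genes; dashed lines mark the limit of 1 unit. The 24 genes higher in both lie at the upper right, the 35 genes lower in both at the lower left, and open circles mark the 4 and 5 of them that are listed at 0 in a diet.

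By the adjusted p of the authors' deposited table, with a threshold of 0.05, 20 of the 24 higher genes and 30 of the 35 lower genes were called in both SID contrasts. Over all genes with a test, 0.644% had such calls higher in both and 1.08% had them lower in both, but the rule used these contrasts, so nothing is read from the members' share. The 9 members without both calls were Apoe, Mup20, Serpina1e and Snora28 in the higher group, and Mir192, Mir3064, Snora33, Snora44 and Rps27 in the lower group. The groups differed in SID level, but the rule itself favours low SID values among higher genes and high ones among lower genes. Nothing is read from that difference. Leaving aside genes listed at 0 in a diet, SID levels had a median of 2.26 FPKM in 20 higher genes and 40.7 FPKM in 30 lower genes, against 6.36 FPKM over all 9548 genes. A SID level under 1 FPKM was found in 7 of these 20 higher genes and in none of the 30 lower genes, as the fixed limit of 1 log2 unit requires of a lower gene. Of the 59, RefSeq annotates 53 as protein-coding, 3 as small nucleolar RNAs, 2 as microRNAs and 1 as a transcribed pseudogene.

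Among the higher genes, enzymes of steroid, drug and fatty acid metabolism that are known as female-biased in mouse liver made up the largest block. Of 23 genes past the level filter on a list of such genes, 9 were in the higher group and none was in the lower group. The median of the 23 genes against SID was 1.45 log2 units in HID and 1.07 in LID, beside −0.07 and −0.13 over all 9548 genes. The authors' deposited table calls 19 of the 23 higher in HID and 15 higher in LID, with none lower in either, where 2.82% and 1.57% of all tested genes were called higher. The list was written with earlier results of these data known, so its direction is not independent evidence.

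Cyp2b9, a steroid- and drug-oxidising P450, had 150 FPKM in HID, 29.1 FPKM in LID and 0.443 FPKM in SID. That was 339 times the SID level in HID and 65.8 times in LID, and HID stood 5.16 times above LID. Cyp2a4, a testosterone hydroxylase, had 91.7 FPKM in HID, 40.8 in LID and 1.26 in SID. Reads of Cyp2a4 are hard to separate from those of its close relative Cyp2a5, which had 128, 43.5 and 76.1 FPKM and did not show the shared pattern. Cyp2b9 and Cyp2a4 have 4 annotated genes between them in the RefSeq order.

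Sult3a1, a sulfotransferase, had 3.62, 2.72 and 0.0338 FPKM in HID, LID and SID. The 2 extremes were close to each other for this gene, at 1.33-fold, and SID was nearly empty.

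Slc22a27 and Slc22a26, transporters of the organic anion family with 1 annotated gene between them, differed from SID together. Slc22a27 had 24.8 FPKM in HID, 7.10 in LID and 0.403 in SID. For Slc22a26 the levels were 5.72, 1.46 and 0.0843 FPKM. Both had HID highest and SID lowest, with HID 3.49 and 3.91 times LID, and reads may be shared between these similar genes.

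Cyp4a14, an omega-hydroxylase of fatty acids and a textbook PPARA target, had 372 FPKM in HID, 290 in LID and 136 in SID. Acot3, a peroxisomal acyl-CoA thioesterase, had 17.5, 12.1 and 4.13 FPKM. They were the only 2 genes of the shared set on a list of 31 fatty acid oxidation and PPARA target genes past the filter. That list had a median of 0.03 log2 units in HID and −0.21 in LID. The authors' deposited table calls 4 of its genes higher in each extreme, 2 lower in HID and 1 lower in LID. Over all tested genes, 2.82% and 1.57% were called higher and 3.84% and 3.31% lower in HID and LID.

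Cyp2c40, a P450 that oxidises arachidonic acid, had 44.5 FPKM in HID, 265 in LID and 21.6 in SID. It was the higher gene nearest to the limit, with a difference of 1.01 log2 units in HID, and unlike the other female-biased genes of the set it was highest in LID, at 5.96 times the HID level. Its relative Cyp2c69, outside the set, was also highest in LID, with 6.32, 93.4 and 4.19 FPKM in HID, LID and SID. Reads may be shared between these similar genes.

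Metallothioneins were the next block. Mt1 had 184 FPKM in HID, 109 in LID and 18.3 in SID, and Mt2 had 89.0, 52.6 and 4.22 FPKM. Mt1 was thus 10.1 and 5.97 times its SID level in HID and LID, and Mt2 21.1 and 12.5 times. In both genes HID was 1.69 times LID, and the authors' deposited table gives an adjusted p of 0.126 for each in HID against LID. Mt3 and Mt4 are listed at 0 in every diet. The regulator Mtf1 had 1.29 FPKM in HID, 1.13 in LID and 1.496 in SID. The list of metallothioneins and zinc handling genes held 7 genes past the filter, and its median was 0.12 log2 units in HID and −0.11 in LID, with Mt1 and Mt2 included. Among its zinc transporters, Slc39a4 had 10.3 FPKM in HID, 10.3 in LID and 6.39 in SID, and the authors' deposited table calls it higher in LID (adjusted p = 0.0496) but not in HID (adjusted p = 0.0529).

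Mt2 and Mt1 are direct neighbours in the RefSeq order, with no annotated gene between them. Their promoters are shown because the 2 genes had the same order of levels and carry matches to the metal response element core, the binding letters of MTF1. Each stretch is the 150 bases before the start site in RefSeq on GRCm38.p6, on the plus strand at chr8:94178939-94179088 for Mt1 and chr8:94172468-94172617 for Mt2. Capitals mark matches to the searched letters TGCGCNC or TGCACNC on either strand.
Mt1: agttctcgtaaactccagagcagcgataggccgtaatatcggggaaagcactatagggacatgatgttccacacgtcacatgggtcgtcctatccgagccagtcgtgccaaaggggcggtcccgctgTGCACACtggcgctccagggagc
Mt2: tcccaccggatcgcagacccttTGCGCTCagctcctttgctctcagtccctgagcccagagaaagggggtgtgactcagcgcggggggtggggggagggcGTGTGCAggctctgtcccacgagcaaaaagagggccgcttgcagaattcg
Over the 250 bases before and 50 after the start, the G form was found in 2071 and the A form in 1013 of 6900 promoters of genes past the filter, so single matches to these short letters are common.

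S100a8 and S100a9 encode the subunits of calprotectin, an abundant neutrophil protein that binds zinc and manganese, and are direct neighbours in the RefSeq order. S100a8 had 9.15 FPKM in HID, 96.7 in LID and 2.38 in SID. S100a9 had 10.9, 82.7 and 3.80 FPKM. LID was 10.6 and 7.61 times HID for the pair, so the higher level in HID was small beside that in LID. Of 16 neutrophil markers in the table, 7 passed the level filter, S100a8 and S100a9 among them. The authors' deposited table calls 1 of the other 5 higher in HID and 3 higher in LID, where 2.82% and 1.57% of all tested genes were called higher. Summed FPKM of these 5 was 22.1 in HID, 24.3 in LID and 7.88 in SID. Lcn2 made up most of the HID sum, with 18.6 FPKM in HID, 8.33 in LID and 4.76 in SID. Cebpe went the other way, with 2.28, 1.48 and 2.81 FPKM. Granule genes were low in HID and SID and higher in LID: Camp had 0.392 FPKM in HID, 5.39 in LID and 0.0540 in SID, and Ngp had 0.416, 3.50 and 0.0119 FPKM. Mpo had 0.289 FPKM in LID and is listed at 0 in HID and SID, and Stfa1 is listed at 0 in all 3 diets. The part of neutrophil number in the S100a8 and S100a9 levels was not tested.

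The remaining higher genes with a level in every diet differed by at most 0.52 log2 units between the extremes. Rad51l1, a recombination repair gene that RefSeq names Rad51b, had 4.94 FPKM in HID, 3.16 in LID and 0.502 in SID. Igfbp5, which binds insulin-like growth factors, had 9.80, 6.53 and 2.56 FPKM. Apcs, which encodes serum amyloid P component, had 327, 291 and 141 FPKM.
Apcs was the 1 gene of the set among 21 acute-phase protein genes past the filter, whose median was −0.09 log2 units in HID and −0.21 in LID. Fabp7, a fatty acid-binding protein best known from brain, had 6.47, 5.44 and 2.13 FPKM in HID, LID and SID. Ctla2a, a cysteine protease inhibitor, had 8.04, 6.22 and 2.44 FPKM.
Ifi27l2b, of the interferon-inducible Ifi27 family, had 6.75 FPKM in HID, 5.76 in LID and 2.12 in SID. Over all 9548 genes past the filter, 0.251% were higher and 0.367% lower in both extremes. The 39 interferon-stimulated genes past the filter on a separate list held no gene of the set. Their median was 0.73 log2 units in HID and 0.33 in LID, and the authors' deposited table calls 21 higher in HID and 6 higher in LID with none lower, beside 2.82% and 1.57% of all tested genes. Ms4a7, a membrane protein of macrophages, had 2.34, 2.16 and 0.524 FPKM. Macrophage and Kupffer cell markers summed to 513 FPKM in HID, 468 in LID and 316 in SID over 29 genes in the table. Of the 23 past the filter, the authors' deposited table calls 6 higher in HID and 9 higher in LID, where 2.82% and 1.57% of all tested genes were called higher. Whether macrophage number had a part in the Ms4a7 levels was not tested.

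Apoe, Mup20 and Serpina1e met the rule through a SID entry of 0 and give no usable difference. Their entries were 12018, 2913 and 277 FPKM in HID and 7709, 10441 and 8359 FPKM in LID. All 3 carry the table's status HIDATA, which Cufflinks writes where a locus holds too many fragments to be processed. Of 26 genes past the filter with this status, 26 are listed at 0 in SID, 23 in LID and none in HID. Apoe encodes a major lipoprotein component, and no level was read for it or for the other two. Snora28, a small nucleolar RNA, had 18.7 FPKM in HID and 7.03 in LID and is listed at 0 in SID.

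**Figure D2:**
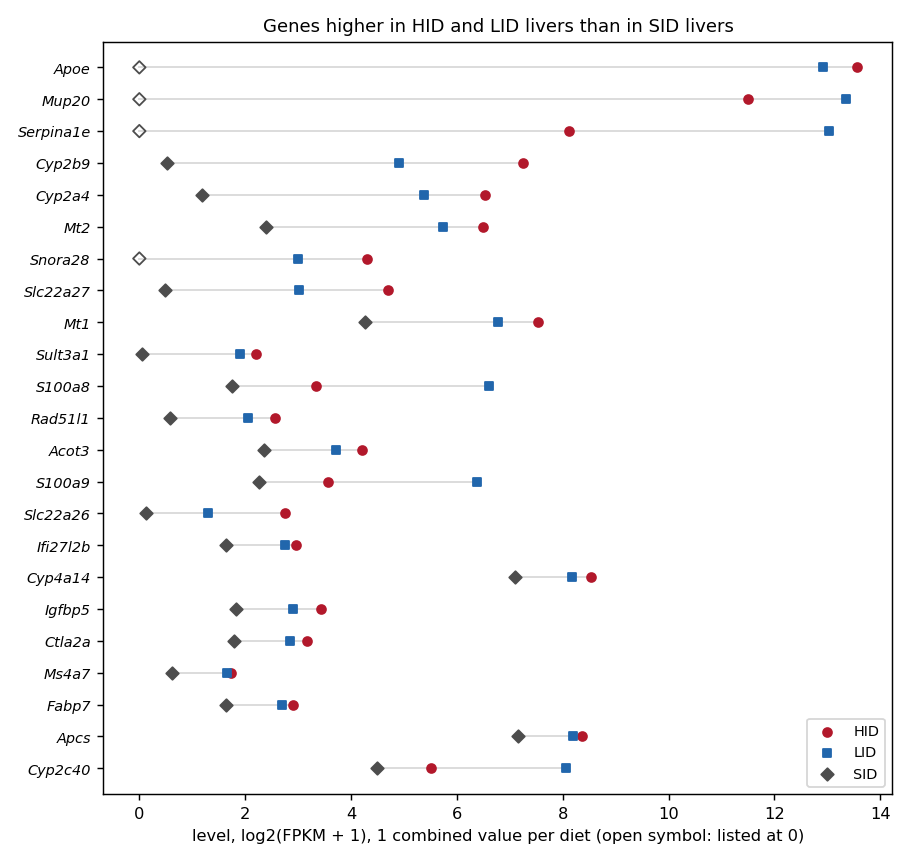
Levels of 23 of the 24 genes higher in both extremes, as log2(FPKM + 1) of the 1 combined value per diet, in order of the smaller of the 2 differences from SID; open symbols are listed at 0. SID is the lowest symbol in every row, and the order of HID and LID varies between rows.

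Male-biased liver genes were the largest block of the lower group. Of 25 such genes past the filter, 8 were lower in both extremes, and 1, Serpina1e, is in the higher group through its SID entry of 0. The list's median against SID was −1.90 log2 units in HID and −0.81 in LID. In the authors' deposited table, 23 of the 25 are called lower in HID and 16 lower in LID, with none called higher, where 3.84% and 3.31% of all tested genes were called lower. This list, too, was written with earlier results known.

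Cyp4a12a and Cyp4a12b, male-predominant omega-hydroxylases of arachidonic acid, had low levels in HID. Cyp4a12a had 5.35 FPKM in HID, 47.3 in LID and 97.6 in SID. Cyp4a12b had 1.08, 10.96 and 27.2 FPKM. Against SID, Cyp4a12a was 18.2-fold lower in HID and 2.06-fold lower in LID, and Cyp4a12b 25.2-fold and 2.48-fold lower. The pair is nearly identical in sequence, with 2 annotated genes between them, so reads may be shared. Cyp4a14, which was higher in both extremes, lies 4 genes from Cyp4a12b.

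Cyp2d9, a male-predominant steroid hydroxylase, had 139 FPKM in HID, 248 in LID and 698 in SID, and its low relative Cyp2d12 had 0.519, 0.682 and 2.56 FPKM. Cyp7b1, the oxysterol hydroxylase of the alternative bile acid pathway, had 10.9, 25.9 and 57.8 FPKM. It was the 1 gene of the set among 22 genes of bile acid synthesis and transport past the filter, whose medians were −0.21 log2 units in HID and −0.25 in LID. Cyp2c44, an epoxygenase that RefSeq names Cyp2c23, had 29.4 FPKM in HID, 41.7 in LID and 91.6 in SID. HID was the lowest diet for all 4 of these P450 genes.

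Serpina4-ps1, annotated as a transcribed pseudogene, had 4.66 FPKM in HID, 26.1 in LID and 87.8 in SID. Selenbp2, a selenium-binding protein gene, had 36.3, 26.7 and 85.6 FPKM. Slc22a7, an organic anion transporter of the hepatocyte's blood side, had 9.27 FPKM in HID, 4.43 in LID and 22.2 in SID. Selenbp2 and Slc22a7 were lowest in LID, unlike most of the male-biased block.

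Mup4, Mup5 and Mup6 encode major urinary proteins, carriers of pheromones that male mice make in large amounts. Mup5 had 0.342 FPKM in HID, 420 in LID and 1035 in SID. For Mup4 the levels were 0.745, 14.6 and 58.3 FPKM, and Mup6 had 1.501, 8.95 and 50.9 FPKM. All 3 were lowest in HID, where Mup5 was close to absent, and LID lay between HID and SID. The genes of this family are close copies of one another. Only Mup4, Mup5, Mup6 and Mup21 of the 20 family members in the table had status OK, and the level of Mup21 was 81.3 FPKM in HID, 1224 in LID and 1969 in SID. Assignment of reads within the family is therefore uncertain.

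Gstp1 and Gstp2, adjacent genes for pi-class glutathione transferases, were the most abundant lower genes with similar levels in both extremes. Gstp1 is also 1 of the 8 lower genes on the male-biased list, so the 2 blocks overlap. Gstp1 had 655 FPKM in HID, 669 in LID and 2448 in SID, and Gstp2 had 141, 125 and 480 FPKM. HID and LID differed by 1.02-fold for Gstp1, and both were 3.73-fold and 3.66-fold below SID. The authors' deposited table gives an adjusted p of 0.993 for Gstp1 in HID against LID. Gsta3 and Gstm1, other glutathione transferase genes, were not in the set. Gsta3 had 1098, 1164 and 1479 FPKM, below SID in both extremes but by less than the limit. Gstm1 had 1360, 735 and 955 FPKM. Over 31 phase II conjugation genes past the filter, Gstp1 and Gstp2 were lower and Sult3a1 was higher in both extremes, and the medians were 0.21 log2 units in HID and −0.30 in LID.

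Nat8, an N-acetyltransferase that completes mercapturic acids from glutathione conjugates, had 3.07 FPKM in HID, 2.66 in LID and 14.4 in SID. Aox3, an aldehyde oxidase, had 18.1, 21.5 and 48.3 FPKM. Ces3a, a carboxylesterase, had 207, 364 and 778 FPKM, and Ces2c, which lies 9 annotated genes away from it, had 1.15, 1.73 and 4.72 FPKM. SID was above both extremes by 2.14-fold or more in each of these genes.

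Heat-shock genes formed a smaller block. Hspa1b, an inducible cytosolic chaperone of the Hsp70 family, had 4.24 FPKM in HID, 3.15 in LID and 17.6 in SID. Hsph1, a nucleotide exchange factor for it, had 10.01 FPKM in HID, 10.5 in LID and 28.2 in SID. The small heat-shock protein gene Hspb1 had 4.49, 12.4 and 31.1 FPKM. HID and LID differed by 1.35-fold for Hspa1b and 1.05-fold for Hsph1, whereas LID was 2.76 times HID for Hspb1. Hspa1a, the near-identical neighbour of Hspa1b, had 1.37, 0.780 and 3.66 FPKM and missed the limit narrowly, and reads of the 2 genes are hard to separate.

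Of 28 heat-shock and cytosolic chaperone genes past the filter, 3 were in the lower group and none in the higher group, and the median was −0.62 log2 units in HID and −0.57 in LID. In the authors' deposited table, 10 genes are called lower in HID and 10 lower in LID, against 1 called higher in HID and none in LID. Over all tested genes, 3.84% and 3.31% were called lower and 2.82% and 1.57% higher in HID and LID. Summed FPKM of the list was 1887 in HID, 1704 in LID and 2594 in SID. The mitochondrial chaperones Hspe1 and Hspd1 were not in the set. Hspe1 had 263, 260 and 254 FPKM, and Hspd1 had 167, 164 and 183 FPKM in HID, LID and SID.

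Promoters of the 3 heat-shock genes are shown because each holds a heat-shock element core, the inverted repeat that heat-shock factor binds. They are the 150 bases before the start in RefSeq on GRCm38.p6, at chr17:34959239-34959388 on the minus strand for Hspa1b, chr5:149636337-149636486 on the minus strand for Hsph1, at 1 of its 2 listed starts, and chr5:135887769-135887918 on the plus strand for Hspb1. Each is written 5′ to 3′ in the direction of the gene, and capitals mark GAANNTTC or TTCNNGAA, which read the same on both strands.
Hspa1b: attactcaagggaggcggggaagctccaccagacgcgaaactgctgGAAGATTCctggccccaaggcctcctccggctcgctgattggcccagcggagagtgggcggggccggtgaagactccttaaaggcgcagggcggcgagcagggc
Hsph1: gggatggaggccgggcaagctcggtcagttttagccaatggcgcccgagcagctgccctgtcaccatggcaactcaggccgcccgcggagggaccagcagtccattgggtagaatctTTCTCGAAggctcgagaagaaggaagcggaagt
Hspb1: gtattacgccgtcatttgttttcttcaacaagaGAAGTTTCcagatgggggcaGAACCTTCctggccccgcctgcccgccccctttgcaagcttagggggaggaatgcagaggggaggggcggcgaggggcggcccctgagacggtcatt
GAANNTTC was found in 4 of 22 promoters of lower genes (18.2%), 2 of 19 of higher genes (10.5%) and 7.42% of the 6900 promoters of genes past the filter. On the heat-shock list it was in 12 of 23 promoters. TTCNNGAA was in 2 of 22, 2 of 19 and 8.45%.

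ER genes were the other chaperone block. Creld2 and Sdf2l1 encode ER-resident proteins that assist folding. Creld2 had 12.5 FPKM in HID, 16.3 in LID and 47.6 in SID, and Sdf2l1 had 8.96, 12.8 and 33.8 FPKM. Syvn1, the ubiquitin ligase of ER-associated degradation, had 10.8, 11.6 and 27.4 FPKM. Herpud1, an adaptor of the same machinery, had 87.3 FPKM in HID, 76.8 in LID and 180 in SID. All 4 differed by at most 1.43-fold between HID and LID. Herpud1 lies 6 annotated genes from Mt1, which was on the opposite side of SID.

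The list of ER chaperones and unfolded protein response genes held 30 genes past the filter, of which these 4 were lower in both and none was higher. Its median was −0.41 log2 units in HID and −0.50 in LID. The authors' deposited table calls 7 lower in HID and 9 lower in LID, and none higher, where 3.84% and 3.31% of all tested genes were called lower. Hyou1, an ER chaperone just outside the limit, had 13.8, 18.5 and 37.8 FPKM. The abundant chaperone Hspa5 had 295 FPKM in HID, 311 in LID and 488 in SID, and Xbp1 had 94.1, 80.1 and 113 FPKM, without a call in either SID contrast.

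The promoters of Creld2 and Syvn1 are shown because they alone among the 41 members with a promoter sequence hold the ER stress element, CCAAT and CCACG with 9 bases between them. They lie at chr15:88819496-88819645 and chr19:6046426-6046575 on the plus strand of GRCm38.p6. Capitals mark both parts of the element, which in Creld2 runs on the opposite strand.
Creld2: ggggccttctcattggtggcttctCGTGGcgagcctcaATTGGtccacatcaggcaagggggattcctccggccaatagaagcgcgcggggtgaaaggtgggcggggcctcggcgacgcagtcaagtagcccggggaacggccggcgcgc
Syvn1: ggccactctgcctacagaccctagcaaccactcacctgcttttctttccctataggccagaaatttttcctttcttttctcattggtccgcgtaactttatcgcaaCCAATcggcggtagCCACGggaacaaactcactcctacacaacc
The element was found in 14 of 6900 promoters of genes past the filter (0.203%) and in 9 of 25 promoters on the ER list. It was searched for after the values were known. Sdf2l1 and Herpud1 had no match in the window.

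Other searched letters are given as counts, with no test between the 2 directions. The STAT site TTCNNNGAA was in 4 of 19 promoters of higher genes, none of 22 of lower genes and 8.29% of the 6900. The interferon-stimulated response element TTTCNNTTT was in 5 of 19, none of 22 and 9.52%, and the D-box TTANNTAA in 3 of 19, none of 22 and 4.77%. The glucocorticoid receptor hexamer AGAACA was in 6 of 19, 3 of 22 and 15.0%. The E-box CACGTG was in none of 19, 1 of 22 and 12.2%, the unfolded protein response element core TGACGTG in 1 of 19, 1 of 22 and 3.20%, and the cAMP response element TGACGTCA in none of 19, none of 22 and 3.67%. These matches describe letters in a window and locate no bound site.

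The remaining lower genes belonged to none of these blocks. Tsku, a secreted leucine-rich proteoglycan that the liver releases, had 5.87 FPKM in HID, 7.66 in LID and 22.2 in SID. Inhbc, the beta C subunit of activins, had 9.61, 10.7 and 25.5 FPKM. Fitm1, a lipid droplet protein gene, had 9.62, 11.6 and 24.7 FPKM.
4833442J19Rik, which RefSeq names Etfbkmt and which encodes a mitochondrial lysine methyltransferase, had 8.28 FPKM in HID, 9.93 in LID and 23.0 in SID. The ribosomal protein gene Rps27 had 3.69, 2.21 and 21.8 FPKM and was called in neither SID contrast. Its reads may be shared with processed copies elsewhere in the genome. Prap1, a secreted proline-rich protein, had 5.09 FPKM in SID and is listed at 0 in HID and LID.

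Mir3064, Mir192, Snora33 and Snora44 had 1854, 404, 65.8 and 14.6 FPKM in SID and are listed at 0 in HID and LID. FPKM divides by the very short length of such genes. Of 709 microRNA and small nucleolar or Cajal body RNA genes in the table, 679 are listed at 0 in every diet, 22 passed the level filter and 18 of these are at 0 in at least 1 diet. The authors' deposited table calls none of the 22 against SID. No level or fold was read for these genes.

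The mature RNAs of both microRNA genes are given to identify them, from RefSeq on GRCm38.p6, with the seed, bases 2 to 8, in capitals. They lie at chr19:6264857-6264877 and chr19:6264900-6264921 on the plus strand for Mir192, a microRNA abundant in liver and gut, and at chr11:106782736-106782757 and chr11:106782695-106782716 on the minus strand for Mir3064.
mmu-miR-192-5p: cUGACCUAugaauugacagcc
mmu-miR-192-3p: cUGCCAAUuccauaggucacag
mmu-miR-3064-5p: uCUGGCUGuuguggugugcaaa
mmu-miR-3064-3p: uGCCACACugcaacaccuuaca
No seed is shared among the 4.

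**Figure D3:**
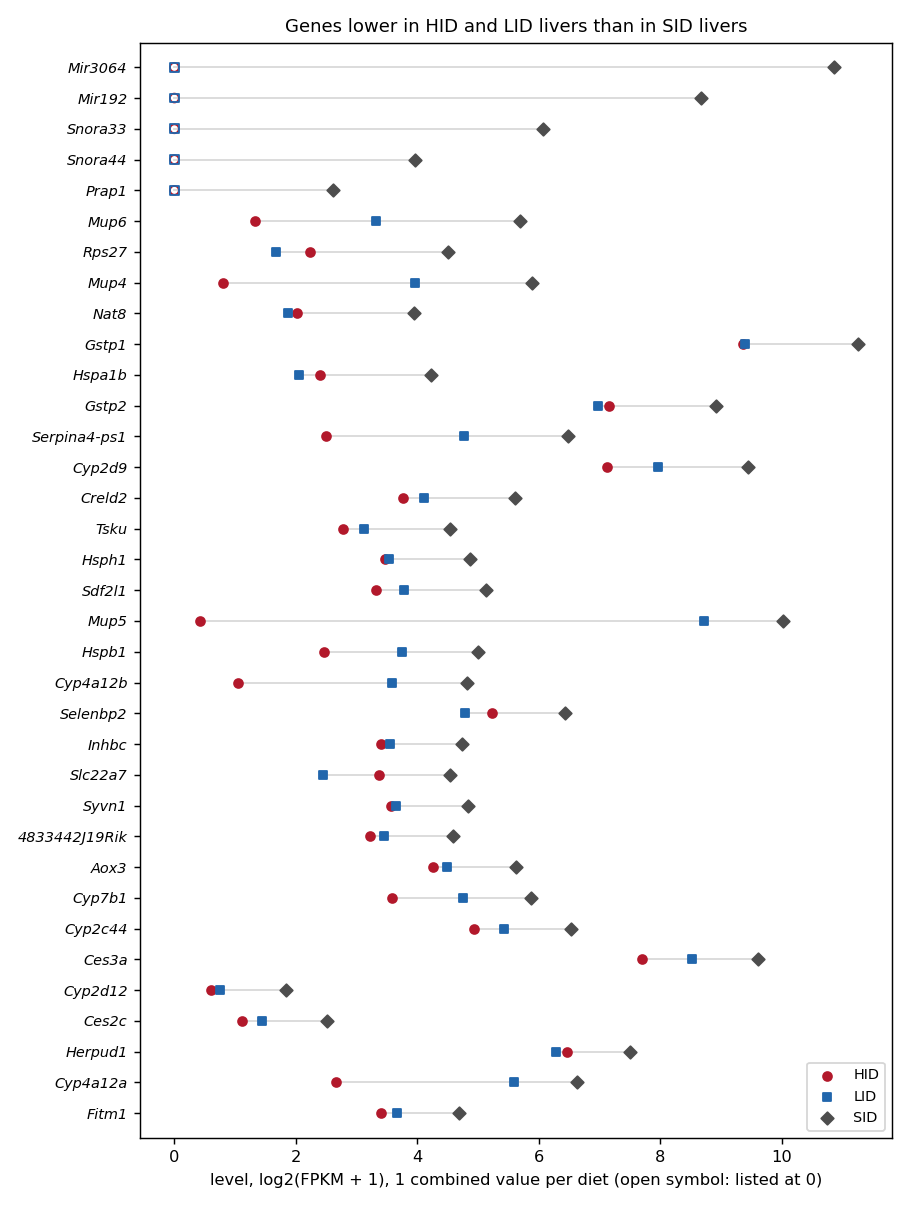
Levels of the 35 genes lower in both extremes, as log2(FPKM + 1) of the 1 combined value per diet, in order of the smaller of the 2 differences from SID; open symbols are listed at 0. SID is the highest symbol in every row, and the 5 top rows hold the genes listed at 0 in HID and LID.

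**Figure D4:**
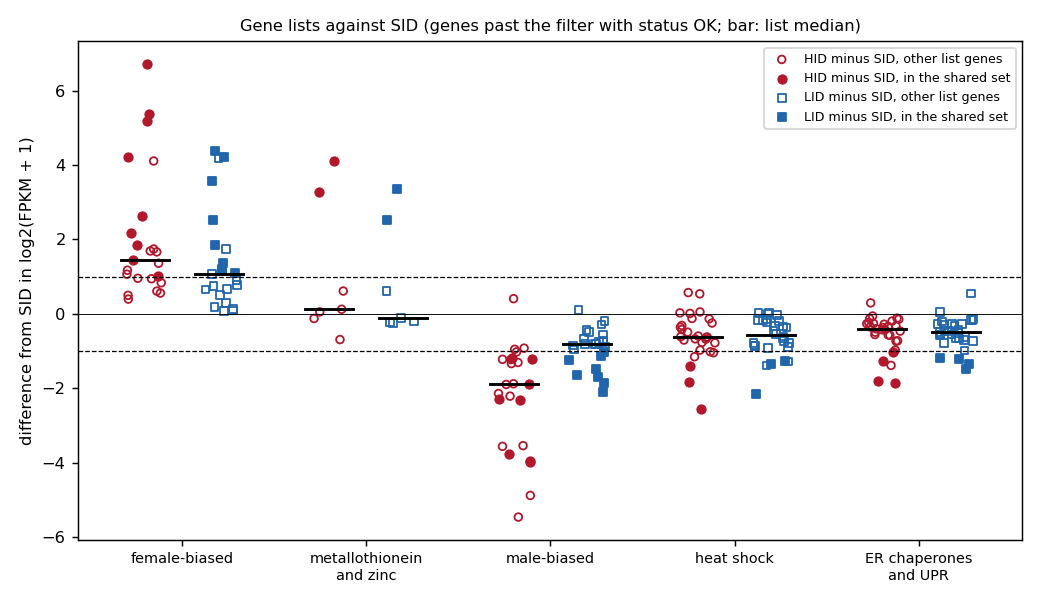
Difference from SID in log2(FPKM + 1) for each gene past the filter with status OK on 5 gene lists, HID in red circles and LID in blue squares; filled symbols are in the shared set and bars are list medians. The female-biased list lies mostly above 0, the male-biased list mostly below it and further below in HID, and the 2 chaperone lists lie mostly just below 0 in both diets.

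Whether the 2 extremes differed from each other is a comparison the rule did not fix, although the same HID and LID values entered it. The authors' deposited table tests 54 of the 59 genes in HID against LID and, at the same threshold, calls 18, 6 higher in HID and 12 lower. Over all 9490 genes tested in that contrast 3.94% were called, 2.1% higher in HID and 1.84% lower. Those higher in HID included Cyp2b9, Cyp2a4, Slc22a27, Slc22a26 and Slc22a7. Lower in HID were S100a8, S100a9, Cyp2c40, Mup4, Mup5, Mup6, Serpina4-ps1, Hspb1, Cyp4a12a, Cyp4a12b and Cyp7b1, besides Serpina1e, whose status leaves its level unread.

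For the genes called in that contrast, the adjusted p in the authors' deposited table was 0.000543 for Cyp2a4, 0.0066 for Slc22a7, 0.000186 for Hspb1 and 3.33e-05 for Cyp7b1. Cyp2b9 was 2.33 log2 units higher in HID than in LID, and Mup5 was 8.29 units lower (a difference of −8.29). The P450 and Mup genes with a called HID level below LID in the lower group were Cyp7b1, Cyp4a12a, Cyp4a12b, Mup4, Mup5 and Mup6. Their LID level lay between HID and SID, as the rule requires of any lower gene with HID below LID. Among the chaperones, Hspb1 was the 1 gene called, and the authors' deposited table gives 0.966 for Hsph1, 0.573 for Hspa1b, 0.565 for Creld2 and 0.878 for Herpud1. A p above the threshold does not show that levels were equal.

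The difference between HID and LID was under 0.5 log2 units for 8 of 24 higher genes and 23 of 35 lower genes, 5 of which are the genes at 0 in both, and for 89.7% of the 9548 genes. It was at least 1 unit for 19 of the 59, against 3.05% of the 9548. The 19 include Serpina1e and Mup20, whose status leaves their levels unread, and the small nucleolar RNA Snora28. At least 2 units separated HID and LID in 6 higher genes, among them Cyp2b9, S100a8, S100a9 and Cyp2c40, besides Serpina1e with its unread level. The same held for 5 lower genes, Mup4, Mup5, Serpina4-ps1, Cyp4a12a and Cyp4a12b. Leaving aside genes listed at 0 in a diet, HID had the larger difference from SID in 17 of 20 higher genes and 23 of 30 lower genes. These are the differences the rule used, and the same count over all genes was not made. Over the 9548 genes, HID was at least 1 unit above SID in 1.57% and below it in 1.33%. For LID these shares were 0.869% and 0.838%, so a larger difference in HID is not shown to be particular to the set.

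**Figure D5:**
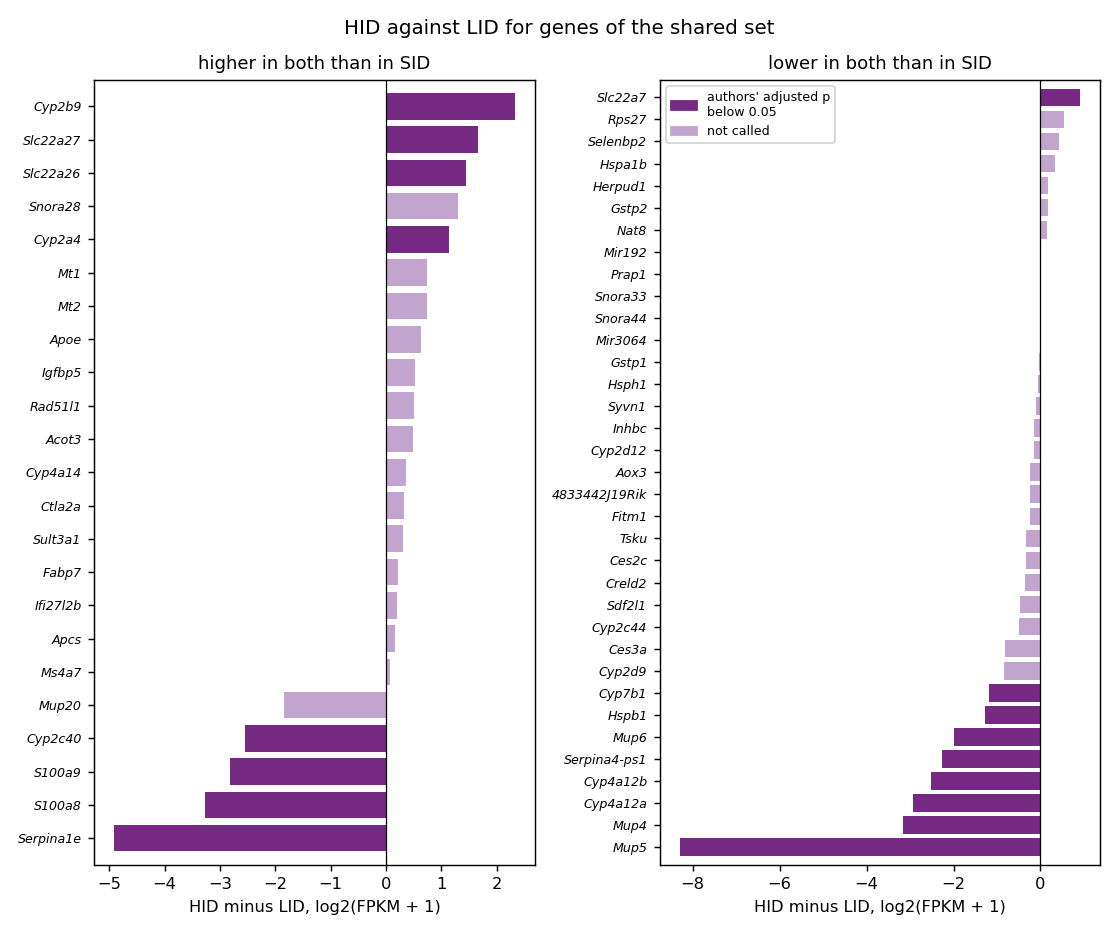
HID minus LID in log2(FPKM + 1) for 23 of the 24 genes higher in both extremes (left) and the 35 genes lower in both (right); dark bars were called at a threshold of 0.05 on the adjusted p of the authors' deposited table. Bars run from −8.29 for Mup5 to 2.33 for Cyp2b9, and 17 bars are dark.

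The limit of 1 log2 unit cut through a continuous range. Just inside it on the higher side, the smaller of the 2 differences was 1.01 for Cyp2c40, 1.03 for Apcs and 1.04 for Fabp7. Just outside were Gm11428, with 59.6 FPKM in HID, 62.2 in LID and 29.3 in SID, Lyz2, a macrophage lysozyme gene, with 63.3, 61.4 and 30.4 FPKM, and Ly6d with 12.4, 5.23 and 2.14 FPKM. On the lower side, differences of −1.03 for Fitm1, −1.03 for Cyp4a12a and −1.04 for Herpud1 were inside. Hyou1 at −0.99, Hspa1a at −0.98 and the Nat8 relative Cml5 at −0.98 were outside, and Cml5 had 1.02 FPKM in HID, 4.11 in LID and 9.04 in SID.

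Iron genes proper were absent from the shared set. None of 25 iron handling genes, 22 hepcidin and BMP-SMAD pathway genes and 13 haem synthesis genes past the filter was a member. Over all 9548 genes, 0.251% were higher and 0.367% lower in both extremes. At that share, lists of this size could hold no member, so nothing is read from the absence. Hepcidin and BMP-SMAD genes had a median of 0.57 log2 units in HID and −0.46 in LID, in opposite directions. Haem synthesis genes had medians of −0.39 and −0.39 log2 units in the 2 extremes, beside −0.07 and −0.13 over all 9548 genes. The authors' deposited table calls 2 of the 13 lower in HID and 3 lower in LID. Over all tested genes, 3.84% and 3.31% were called lower.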

How the data were processed

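Liver RNA of 9 libraries, 3 per diet, was analysed. Per the submitters' processing notes, reads were handled with TopHat and Cufflinks 2.2.1 on mm9. The authors deposited 1 FPKM value per gene and diet, combined over libraries, with a p-value and adjusted p-value per contrast. The header names no unit, and FPKM follows from Cufflinks and the size of the values. The sources used here do not name the authors' test. The deposited methylation score table covers 48 loci in 10 genes, none of them a member, and gave no value here.

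The members and 42 gene lists (905 genes, 888 in the table) were chosen with earlier results of these data known. Differences were taken as log2(FPKM + 1), a scale that shrinks those of low genes. No model could be fitted to 1 value per diet, and calls are the authors' at an adjusted p below 0.05, over genes with an adjusted p under 1. What spread those p-values rest on could not be checked, and the labels do not tie the libraries to separate animals. The named-gene rule took, per direction, the 10 members with the largest smaller difference, 3 on each side of the limit, up to 4 per list, families of 3 or more, members at 0 and members with HID and LID 2 units apart. Other genes were named after their values were seen, and 1 member is counted but not reported here. The selection was tested on simulated data. Sequences are from RefSeq on GRCm38.p6, where 59 members matched, 3 of them by synonym, and 41 had a promoter. Python 3.11.15 with pandas 2.3.3, numpy 2.4.6 and matplotlib 3.10.9 was used. Alternatives were other pseudocounts, filters, limits and scalings.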

Additional observations from a re-analysis of the deposited data

How the results depend on the processing

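As reported, 24 genes were higher and 35 lower in both extremes. The counts were 64 and 46 with a pseudocount of 0.1, 11 and 27 with a pseudocount of 5, 143 and 280 at a limit of 0.5 log2 units, and 11 and 13 at a limit of 1.5. They were 37 and 27 after subtracting the median change and 40 and 23 with FPKM scaled to the same sum over genes above 0 in every diet. A mean of at least 0.5 FPKM gave 24 and 36, a mean of at least 5 gave 18 and 31, and no level filter gave 24 and 36. Leaving out genes listed at 0 gave 20 and 30, and asking also for the authors' adjusted p below 0.05 in both SID contrasts gave 20 and 30. An alternative chosen after seeing the data, status OK and no small RNA genes, gave 20 and 31. All 24 higher genes stayed in after either rescaling, while 8 lower genes left after subtracting the median and 12 after scaling to the same sum. Both medians were negative, so subtracting them raised every difference and could take no gene from the higher group. Its staying whole is therefore no sign of a firmer group. The pseudocount of 5 dropped 13 higher and 8 lower genes, which follows from its construction, as it shrinks differences of low genes. Direction was followed only for the 2 pseudocounts and the subtraction of medians. None of these can reverse a difference of at least 1 unit, so nothing is read from the unchanged directions. No paired analysis was possible because the table holds 1 value per diet, and for the same reason leaving out a replicate was not run. The methylation alternatives were not run, since no member has a locus. Read depth is unknown, so the counting error of low levels, such as the SID values between 0 and 1 FPKM of 7 higher genes, could not be given.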
